A study of Mus musculus with 3 samples.

Results

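Aminoacyl-tRNA synthetases are the enzymes that join each amino acid to its transfer RNA, the step that makes amino acids usable by the ribosome. Mammalian cells hold a cytosolic set and a separate, nuclear-encoded mitochondrial set, whose gene symbols end in ars2. Genes of the cytosolic set are textbook targets of ATF4, the transcription factor of the integrated stress response, which is translated when the initiation factor eIF2 is phosphorylated and which binds a composite element together with C/EBP family proteins. The gene group described here is a list of 36 synthetase symbols, 20 cytosolic and 16 mitochondrial, matched to the probe sets of the arrays by symbol in its older or newer form. Of the 36 genes, 33 had a probe set of their own, 17 cytosolic and 16 mitochondrial, among 18820 genes with such a probe set. All 33 passed the filter on low values, a mean log2 value over the arrays of 4.14 or more, which is the median gene's mean. Aars and Farsb were covered only by a probe set annotated to a further gene as well, Dars had no annotated probe set, and these 3 are given no value.

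The arrays came from RAW264.7, an established mouse macrophage line, cultured in medium with fetal serum. Cells received 500 µM of 1 fatty acid for 6 hours. The fatty acid was carried by serum albumin freed of its own fatty acids, in a ratio of 2 to 1. The 3 groups were oleate (monounsaturated, cis double bond), elaidate (the same chain with the double bond in trans) and palmitate (saturated, with a shorter chain). Each group is 1 array, and no array of cells without fatty acid or with albumin alone is part of the series. The design therefore asks how a cis, a trans and a saturated fatty acid compare at 1 dose and 1 time, and every difference below is between 2 arrays, with no replicate check and no p-value. A p-value being absent, a small difference does not show that 2 fatty acids act alike.

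The values are log2 expression values made with RMA, as deposited, and their medians over the 35556 probe sets were 3.57, 3.58 and 3.61 on the oleate, elaidate and palmitate arrays. All 10 macrophage markers passed the filter, as did 2 of 4 measured dendritic cell, 0 of 4 lymphocyte, 2 of 5 fibroblast, 1 of 4 adipocyte or hepatocyte and 2 of 6 osteoclast markers. On the palmitate array 8 of the 10 macrophage markers were lower than on the oleate array, 1 was higher and 1 equal, beside 36.8% of all genes past the filter that were lower, with a median log2 difference of -0.34. The lowest were Mertk, a receptor for the uptake of dying cells, at -2.10, the lysozyme gene Lyz2 at -0.83 and Adgre1, the gene of F4/80, at -0.66, and these 3 were at least 1.5-fold lower, beside 4.73% of those genes. Against oleate, elaidate had 8 of the 10 markers lower and 2 equal, with a median of -0.09, beside 24.3% lower over those genes. Palmitate against elaidate put 8 of the markers lower, beside 37.9% of those genes, and their median difference was -0.30. The part of these shifts in the results below was not tested.

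A motif of the ATF4 and C/EBP type lay near the start of several cytosolic synthetase genes, and those sequences are shown because 4 of the cytosolic genes with higher palmitate values share it. The motif searched was TGATGNAA on either strand, in RefSeq windows of 250 bases before and 50 bases after the start (build GRCm38.p6), which were at hand for 13 cytosolic and 14 mitochondrial synthetases. Cars, Hars, Lars, Nars, Rars, Vars, Wars, Hars2 and Pars2 had none. The motif was found for 5 of the 13 cytosolic genes, Aars, Gars, Iars, Tars and Yars, and 0 of the 14 mitochondrial ones, beside 3.97% of all 32851 promoter windows. Synthetases were counted by gene, and Aars2 had 2 windows, while the share over all promoters counts single windows. Of the 11 cytosolic genes at least 1.5-fold higher with palmitate than with oleate, 6 had a window; 4 of these held the motif, and the other 2, of Eprs and Sars, did not. The genes with no window include Cars and Nars, which had the highest differences. Of the 4 windows of measured cytosolic genes below 1.5-fold (Farsa, Kars, Mars and Qars), 0 held it. Counts of 0 among 14 and among 4 genes are near the share over all windows. The stricter form TGATGCAA, which lies within the first motif, was found for 4 of the 13 cytosolic genes, 0 of the 14 mitochondrial ones and 0.895% of all windows. A match is a description of letters and not a site of binding, and no match says only that these letters are not in the window.

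The 4 matches in genes with a value are printed below on the gene's own strand, 30 bases each, with the motif in capitals. In Tars, Iars and Gars the motif reads in the reverse orientation, as TTGCATCA or TTTCATCA, and in Yars it reads forward. Tars was named by the rule for promoters (at least 2-fold higher with palmitate, motif before the start) and was the only gene past 2-fold that had a window, and the other 3 were added after their values were seen.
Tars: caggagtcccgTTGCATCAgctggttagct
Iars: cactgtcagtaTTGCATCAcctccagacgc
Gars: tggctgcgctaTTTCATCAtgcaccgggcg
Yars: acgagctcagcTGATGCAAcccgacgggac
The Tars window is chr15:11399655-11399684 on the minus strand, and its motif starts 15 bases before the start of the gene. The Gars window is chr6:55037960-55037989 on the plus strand, with the motif starting 30 bases before the start. In Iars, chr13:49682126-49682155 on the plus strand, and Yars, chr4:129189895-129189924 on the plus strand, the motif lies just past the start, at bases 8 to 15 and 4 to 11 of the transcribed sequence. For the genes with the motif before the start, the 120 bases up to the start are given for context, chr15:11399659-11399778 on the minus strand for Tars and chr6:55037881-55038000 on the plus strand for Gars.
Tars: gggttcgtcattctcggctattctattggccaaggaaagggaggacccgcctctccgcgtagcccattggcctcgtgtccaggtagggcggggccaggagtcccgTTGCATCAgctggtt
Gars: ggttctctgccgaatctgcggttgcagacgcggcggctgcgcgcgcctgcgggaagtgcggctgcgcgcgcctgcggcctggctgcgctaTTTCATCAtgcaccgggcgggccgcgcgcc

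Palmitate against oleate gave the widest separation of the synthetases. Of the 17 measured cytosolic genes 12 were higher on the palmitate array, 4 were equal and Qars was lower by 0.01. Their median log2 difference was 0.81, or 1.75-fold, beside a median of 0 over all genes. Over the 9410 genes past the filter 30.9% were higher, 36.8% lower and 32.3% equal. The 16 mitochondrial genes had a median of 0, with 4 higher, 4 lower and 8 equal. At least 1.5-fold higher were 11 of the 17 cytosolic and 0 of the 16 mitochondrial genes, beside 4.57% of those genes. At least 2-fold higher were 3 cytosolic genes, Cars, Nars and Tars, and 0 mitochondrial ones, beside 1.65% of those genes. For the mitochondrial set, counts of 0 among 16 genes are near these shares. No synthetase was 1.5-fold lower, beside 4.73%.

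**Figure D1:**
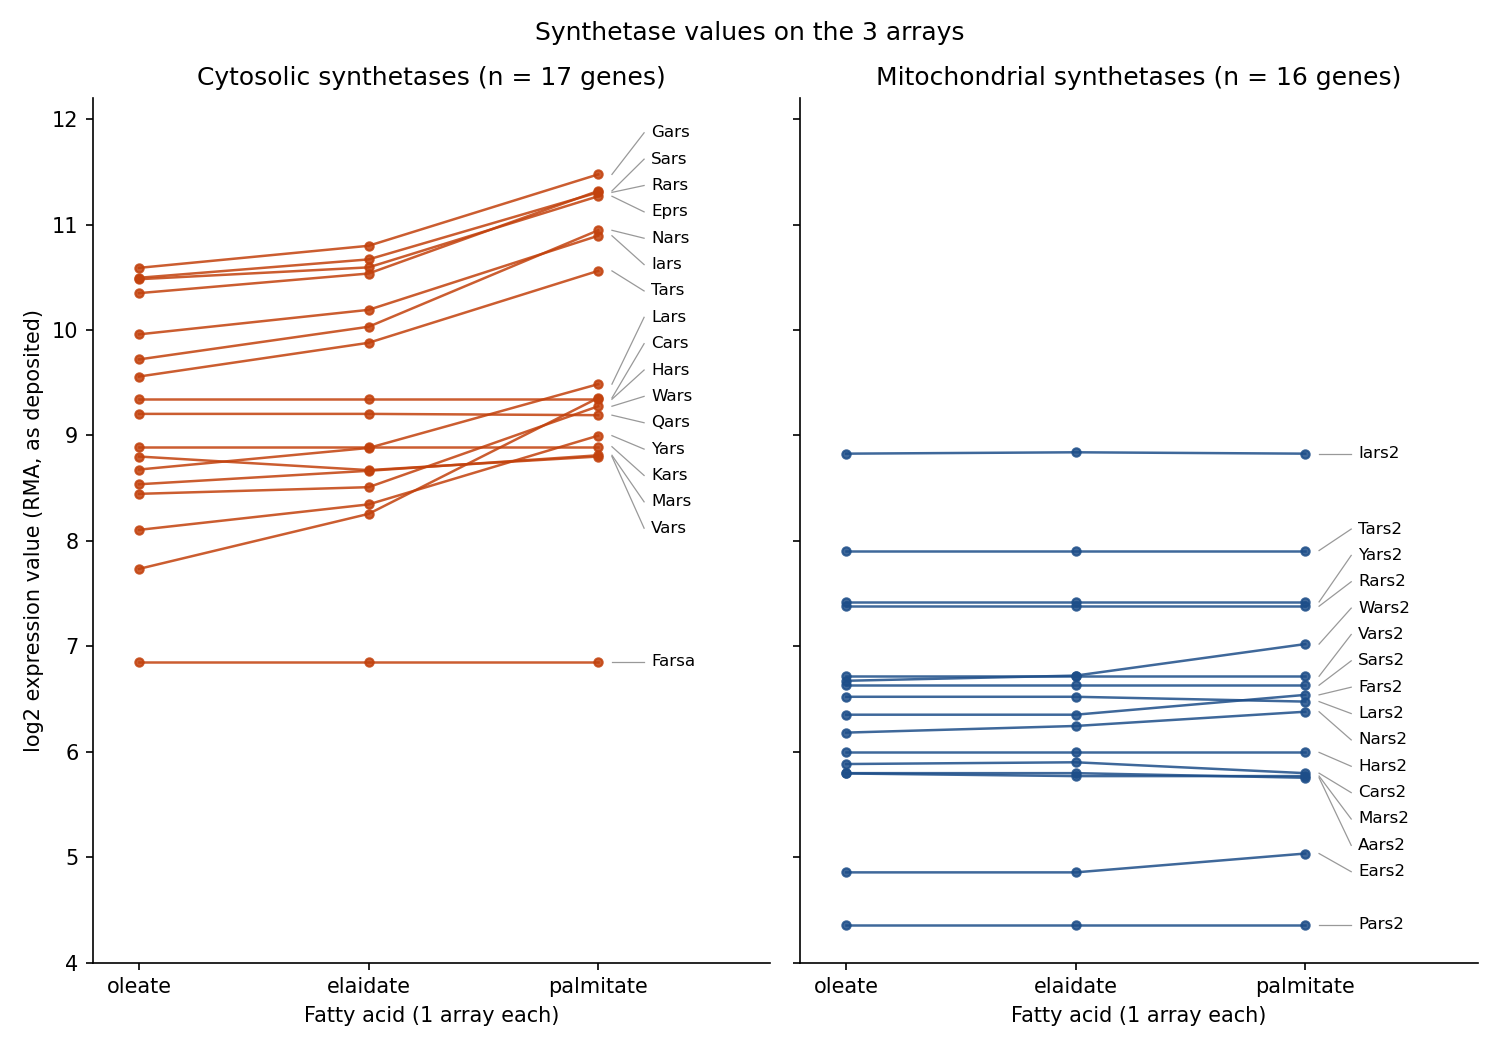
Log2 expression value (vertical axis, RMA as deposited) of each measured synthetase on the oleate, elaidate and palmitate arrays (horizontal axis), with the 17 cytosolic genes on the left and the 16 mitochondrial genes on the right. Each line joins the values of 1 gene on 1 array per fatty acid, and 11 cytosolic lines bend upward at palmitate while no mitochondrial gene differs by more than 0.35 between palmitate and oleate.

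Cars, the cysteinyl-tRNA synthetase (gene identifier 27267), had log2 values of 7.73 with oleate, 8.26 with elaidate and 9.36 with palmitate. Its palmitate value was the high one and its elaidate value lay between the others. The difference of 1.62 between palmitate and oleate, or 3.08-fold, was the 50th highest of the 9410 genes, and Cars was the only synthetase past 3-fold. Nars, which charges asparagine (gene identifier 70223), had values of 9.72, 10.03 and 10.95 in the same order of arrays, a difference of 1.22. Tars, which charges threonine (gene identifier 110960), had values of 9.56, 9.88 and 10.56. Its difference of 1.00 put it just inside the 2-fold limit (0.96 when each array was centred on its median), and Sars, the seryl-tRNA synthetase at 0.97, was just outside it.

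Sars had log2 values of 10.35 with oleate, 10.54 with elaidate and 11.32 with palmitate. Iars, which charges isoleucine and belongs to the multisynthetase complex, had 9.96, 10.19 and 10.89. Its 2 probe sets gave palmitate minus oleate differences of 0.91 and 0.96, and it was the only synthetase with more than 1 probe set of its own. Gars, whose gene supplies glycyl-tRNA synthetase to the cytosol and to mitochondria alike, had 10.59, 10.80 and 11.48. Yars, which charges tyrosine, had 8.10, 8.35 and 9.00, and the palmitate minus oleate difference was 0.89 for Gars and Yars alike. In all of these genes the palmitate array was the high one and the oleate array the low one.

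The remaining 4 of the 11 genes lay close together. Wars, the tryptophanyl-tRNA synthetase, known also as an interferon-inducible gene, differed by 0.83 between palmitate and oleate, with log2 values of 8.45, 8.51 and 9.28. Lars, the leucyl-tRNA synthetase that also senses leucine for the mTORC1 pathway, had 8.68, 8.88 and 9.49. Lars and Rars, the arginyl enzyme, differed by 0.81 each. Eprs, a single protein that charges glutamate and proline, differed by 0.79 and was the lowest of the 11, at rank 253 among the 9410 genes. The 11 genes thus spanned 0.79 to 1.62, with a median of 0.89, and no cytosolic gene lay between Eprs and Mars at 0.27.

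The other 6 cytosolic genes lay from -0.01 to 0.27 between palmitate and oleate. Mars, the methionyl enzyme listed as Mars1, had log2 values of 8.54, 8.66 and 8.81. A further probe set annotated to Mars1 together with the neighbouring stress gene Ddit3 was not used, because its signal cannot be assigned to either gene. Farsa, the catalytic subunit of the phenylalanyl enzyme, Hars, which charges histidine, and Kars, which like Gars serves cytosol and mitochondria, were equal on all 3 arrays, at 6.85, 9.34 and 8.89. Vars, the valyl enzyme, was equal with oleate and palmitate at 8.80 and lower with elaidate at 8.67. Qars, the glutaminyl enzyme, stood at 9.20, 9.20 and 9.19.

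Values that are equal on all 3 arrays, to within 1e-06, are common in these data. They were found for 3 of the 17 cytosolic and 7 of the 16 mitochondrial synthetases, beside 27.5% of the genes past the filter. RMA takes medians across arrays when it summarises probes, and with few arrays this can return identical values, so an equal value is not a measurement of no difference. Probe-level signals were not analysed here.

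Among the mitochondrial enzymes the highest palmitate minus oleate difference was 0.35, for Wars2, the tryptophanyl enzyme, with log2 values of 6.67, 6.72 and 7.02. Nars2, which charges asparagine, followed at 0.20, with 6.18, 6.24 and 6.38. Fars2, a single-chain phenylalanyl enzyme, differed by 0.19 and Ears2, which charges glutamate, by 0.18, each with equal oleate and elaidate values. Another 4 were lower with palmitate. Cars2 differed by -0.09, Lars2 by -0.05, Aars2 by -0.04 and Mars2 by -0.02. Iars2 had 8.83 with oleate and with palmitate and 8.84 with elaidate. The remaining 7, Hars2, Pars2, Rars2, Sars2, Tars2, Vars2 and Yars2, were equal on all 3 arrays.

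Set side by side for the same amino acid, 13 pairs had a measured enzyme in each compartment, which for phenylalanine means Farsa alone against Fars2. The difference of the cytosolic enzyme exceeded that of its mitochondrial partner in 10 pairs, was equal in 2 and was smaller in 1. The median gap was 0.86 on the log2 scale, and 8 pairs had a gap of at least 1.5-fold. It was widest for cysteine, where Cars stood at 1.62 and Cars2 at -0.09, a gap of 1.71. Asparagine at 1.03, threonine at 1.00, serine at 0.97 and isoleucine at 0.94 followed, and in the last 3 of these the mitochondrial partner was equal between the arrays. The mitochondrial partner was equal in the tyrosine and arginine pairs too. With an equal partner the gap is the cytosolic difference alone. An equal value, as said above, is not a measurement of no difference. Tryptophan had a gap of 0.48 with each partner higher, and methionine one of 0.30. In the histidine and valine pairs neither enzyme differed, and in the phenylalanine pair Fars2 at 0.19 stood above Farsa at 0. Of the 17 cytosolic genes 11 lay above the highest mitochondrial one, Wars2, whose difference was the 853rd highest of the 9410 genes past the filter.

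**Figure D2:**
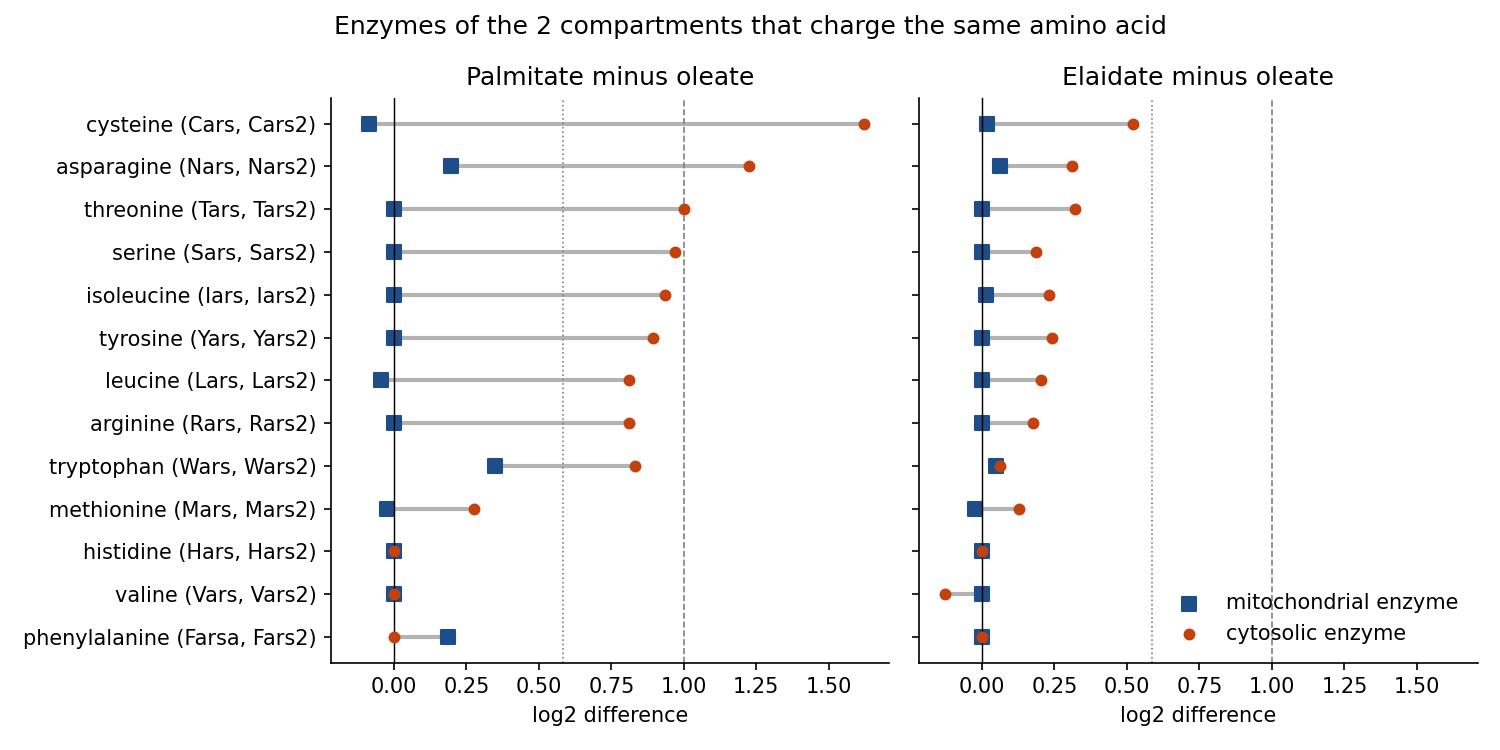
Log2 difference from oleate (horizontal axis) for palmitate on the left and elaidate on the right, for the 13 amino acids with a measured enzyme in each compartment (vertical axis). Circles are cytosolic and squares mitochondrial enzymes, the grey bar is the gap between them, and the dotted and dashed lines mark 1.5-fold and 2-fold; 8 palmitate gaps are at least 1.5-fold and 0 elaidate gaps are.

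The compartments also differed in signal. Mean log2 values ran from 6.85 to 10.95 for the cytosolic and from 4.36 to 8.83 for the mitochondrial probe sets. Among all genes in the cytosolic signal range 5.55% were at least 1.5-fold higher with palmitate than with oleate, and among those in the mitochondrial range 4.35%. In the range that held members of each compartment, from 6.85 to 8.83, 3 of 6 cytosolic genes were at least 1.5-fold higher and 0 of 4 mitochondrial ones. These 4, Iars2, Rars2, Tars2 and Yars2, had palmitate minus oleate differences of 0, and equal values, as said above, are not a measurement of no difference. A count of 0 among 4 genes is also near the 4.35%. The part of the signal level in the difference between compartments was not tested.

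**Figure D3:**
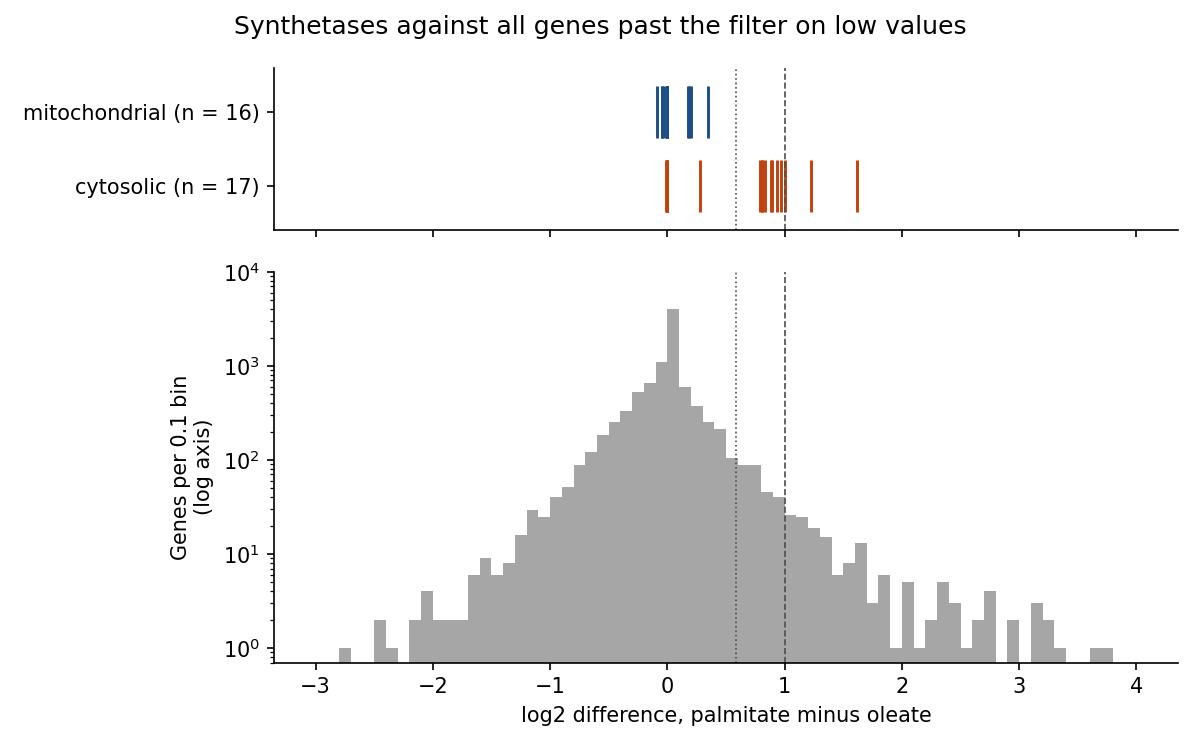
Number of genes (vertical axis, log scale) in each 0.1 bin of the palmitate minus oleate log2 difference (horizontal axis) for the 9410 genes past the filter, with each synthetase as a tick above. Dotted and dashed lines mark 1.5-fold and 2-fold; 11 cytosolic ticks lie at 0.79 or above and the mitochondrial ticks lie at 0.35 or below. The bin with the most genes starts at 0 and holds those with equal values.

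Counts within the cytosolic set are given by structural class and by complex, beside the 4.57% of genes past the filter that were at least 1.5-fold higher and the 1.65% that were at least 2-fold higher; the groups were not tested against each other. Class I enzymes, which share a Rossmann-fold catalytic domain, had 6 of 9 members at least 1.5-fold higher with palmitate than with oleate and a median difference of 0.81, and 1 member, Cars, at least 2-fold higher. Class II enzymes, built on an antiparallel sheet, had 4 of 7 and a median of 0.89, with 2 members, Nars and Tars, at least 2-fold higher. Eprs holds a domain of each class. Of the measured enzymes of the multisynthetase complex, a particle that gathers several synthetases on scaffold proteins, 4 of 7 were at least 1.5-fold higher (Eprs, Iars, Lars and Rars) and Kars, Mars and Qars were not. Of the enzymes outside the complex 7 of 10 were. The 3 genes past 2-fold all lay outside it, as did 10 of the 17 measured cytosolic genes. Of the 3, Tars was close to the limit at 1.00 (0.96 after centring), and Iars of the complex stood at 0.94. The scaffold genes themselves, Aimp1 at 0.03, Aimp2 at -0.07 and Eef1e1 at 0.38, were below 1.5-fold.

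The trans and the cis isomer were then compared. With elaidate 12 of the 17 cytosolic synthetases had higher values than with oleate, 4 had equal ones and Vars a lower one at -0.13. The median log2 difference was 0.17, or 1.13-fold. Over the genes past the filter 31.5% were higher, 24.3% lower and 44.1% equal. None of the synthetases was 1.5-fold higher, beside 0.723% of those genes, 2-fold higher, beside 0.106%, or 1.5-fold lower, beside 0.0638%. Cars was again the highest at 0.52, followed by Tars at 0.32, Nars at 0.31, Yars at 0.24, Iars at 0.23, Gars at 0.21 and Lars at 0.20. Sars at 0.19, Rars at 0.17, Mars at 0.13, Eprs at 0.11 and Wars at 0.06 completed the 12.

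Mitochondrial synthetases had small differences or equal values between the isomers, and the equal values, as said above, are not a measurement of no difference. Of the 16 genes 11 were equal on the elaidate and oleate arrays, 4 were higher and 1 lower, and the extremes were Nars2 at 0.06 and Mars2 at -0.02. Over the 13 pairs the median gap, cytosolic minus mitochondrial, was 0.19, and 10 pairs had the larger difference in the cytosol. Only the valine pair went the other way, at -0.13. No pair had a gap of 1.5-fold, and the tryptophan enzymes, Wars and Wars2, differed by 0.01.

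In all 11 cytosolic genes past 1.5-fold between palmitate and oleate, elaidate held the middle value. This order held for 84.9% of the 430 genes past the filter that were 1.5-fold higher in that comparison. The elaidate value lay between 7.61% (Wars) and 32.2% (Cars) of the way from the oleate to the palmitate value on the log2 scale, with a median of 24.9%. For Tars it was 31.9%, for Nars 25.3% and for Eprs 14.3%. The comparisons share arrays, so these shares are a way of setting the 3 values of a gene side by side.

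Palmitate against elaidate, which shares the palmitate array with the first comparison, gave cytosolic differences with a median of 0.65, or 1.57-fold. Of the 17 genes 13 were higher, 3 equal and 1, Qars, lower at -0.01, beside 27.9% higher, 34.2% equal and 37.9% lower over the genes past the filter. At least 1.5-fold higher were 11, beside 3.18% of those genes, and at least 2-fold higher was 1, Cars at 1.10, beside 0.978%. Nars stood at 0.91, Sars at 0.78, Wars at 0.77, Iars at 0.70, Gars and Tars at 0.68 each and Eprs at 0.67. Yars at 0.65, Rars at 0.64 and Lars at 0.61 were the lowest of the 11, near the 1.5-fold limit. No synthetase was 1.5-fold lower, beside 4.43%. Among the mitochondrial genes Wars2 was the highest at 0.30 and Cars2 the lowest at -0.10, with a median of 0. Over the 13 pairs the median gap was 0.65, with the cytosolic enzyme ahead in 11 pairs and Fars2 ahead of Farsa by 0.19.

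Related genes of tRNA charging and translation were set beside the synthetases. These lists, like the members and limits, were chosen with earlier results of these data known. Among 22 measured ATF4 and CHOP targets of a list of 25, 20 passed the filter. At least 1.5-fold higher with palmitate than with oleate were 17, beside 4.57% of genes past the filter, and at least 2-fold higher were 13, beside 1.65%. The median over the 22 was 1.32, beside 0.81 for the cytosolic synthetases. The 13 were Trib3, a pseudokinase, at 3.68, the transporter genes Slc1a4 at 3.29, Slc7a11 at 1.86, Slc7a5 at 1.36 and Slc7a1 at 1.27, and the stress genes Nupr1 at 2.91, Sesn2 at 2.71 and Chac1 at 2.47. The others were the enzymes Cth at 2.70, Aldh18a1 at 1.69 and the asparagine synthetase gene Asns at 1.10, together with Atf4 itself at 1.61 and the translation repressor gene Eif4ebp1 at 1.43. Phgdh was the only one lower, at -0.11, and it and Vldlr, which was equal, were the 2 genes below the filter. Ddit3, the gene of CHOP, Atf5 and Pycr1 had no probe set of their own. Between elaidate and oleate the list had a median of 0.36, with Slc1a4 at 1.21 the 1 gene past 2-fold, beside 0.106% of genes past the filter. Between palmitate and elaidate its median was 0.99, with 10 genes past 2-fold, beside 0.978%.

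The lists that charge, edit or use tRNA by other means had medians near 0 between palmitate and oleate. The 11 measured genes for other steps of tRNA charging and editing, which include the subunits of the mitochondrial glutamyl-tRNA amidotransferase, had a median of 0, with Prorsd1 at 0.18 and Dtd2 at -0.16 furthest from 0. In the elaidate and oleate comparison Mtfmt, which formylates the mitochondrial initiator methionyl-tRNA, stood at 0.34. The 7 cytosolic elongation factor genes had a median of 0, with Eef1d at -0.36 and Eef1b2 at 0.11 furthest from 0. The 10 mitochondrial translation factor genes had a median of 0.02, with the release factor gene Mtrf1 at 0.42 and Tufm, the mitochondrial elongation factor Tu gene, at -0.34. None of the genes of these 3 lists reached 1.5-fold in any of the 3 comparisons. Over the genes past the filter 4.57% were that much higher and 4.73% lower between palmitate and oleate. These shares were 3.18% and 4.43% between palmitate and elaidate, and 0.723% and 0.0638% between elaidate and oleate. A count of 0 in lists of 7 to 11 genes is near such shares.

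**Figure D4:**
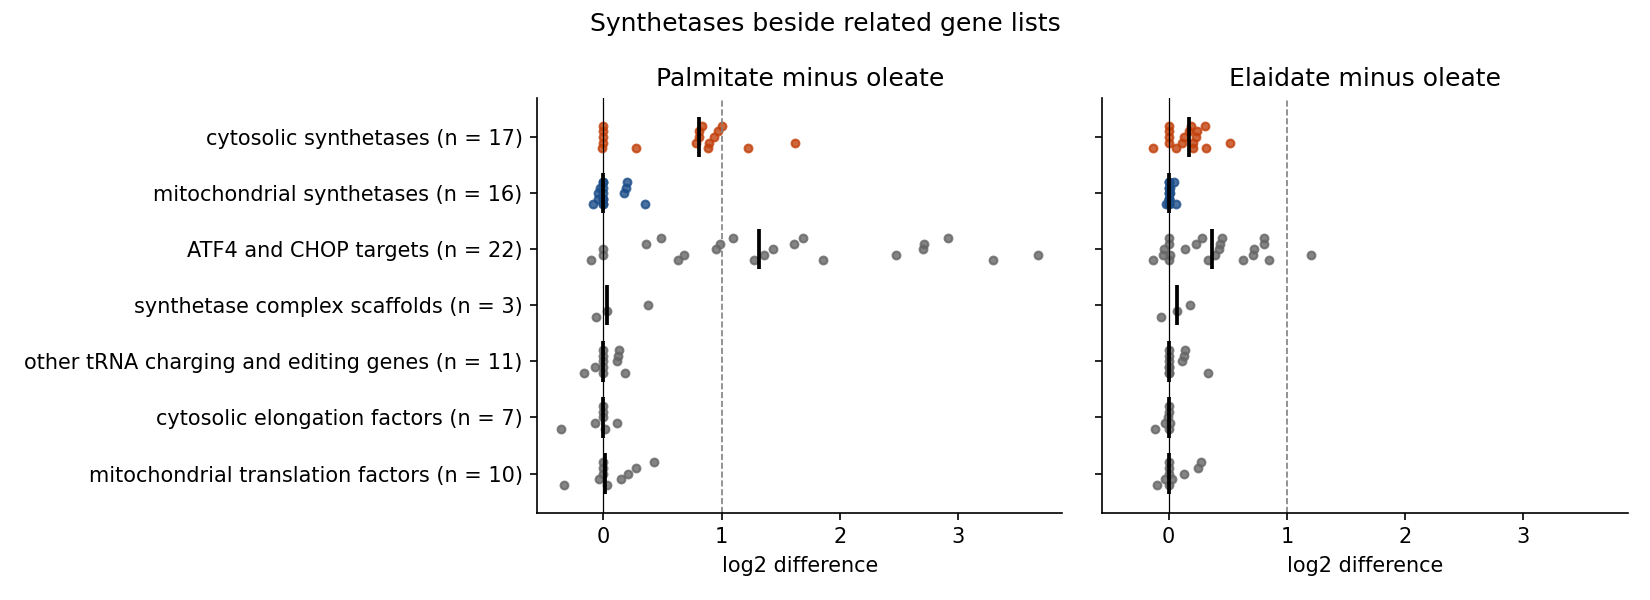
Log2 difference from oleate (horizontal axis) for palmitate on the left and elaidate on the right, with 1 point per gene for the synthetases and 5 related lists (vertical axis), and a black bar at each list's median. The dashed line marks 2-fold; the palmitate medians are 0.81 for cytosolic synthetases, 1.32 for ATF4 and CHOP targets and 0 or close to 0 for the others.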

How the data were processed

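RNA of 3 RAW264.7 cultures, 1 per fatty acid, was labelled with biotin for Affymetrix whole-transcript arrays, as the labels' protocols state. The authors deposited a log2 expression value for each probe set, and the submitters' processing notes name RMA as the tool; its version and the genome build are not given in the sources used here. Groups were taken from the labels. The number of arrays, 1 per group, limits the precision.

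The platform annotation gave the gene names. Of 35556 probe sets, 21218 had 1 gene symbol and were used, 1881 had several and 12457 were unnamed. A gene with several probe sets was given their mean. Differences of log2 values were computed as coded (palmitate minus oleate and so on), and genes at least 1.5-fold or 2-fold different were counted over the 9410 genes past the filter. Every measured synthetase is named. Of each related list, members at least 2-fold different are named, or otherwise the 2 furthest from 0, and Phgdh, Vldlr, Mtfmt, the 3 scaffold genes and the macrophage markers Mertk, Lyz2 and Adgre1 were named after their values were seen. Promoter windows came from RefSeq (GRCm38.p6). The members, lists and limits were chosen with earlier results of these data known. Counting was tested on simulated data, and the motif search on short made-up sequences. Alternatives were array centring, cyclic loess (limma 3.58.1, R 4.3.3, span 0.7, 3 iterations), other filters, fold limits, probe set choice and list membership. Python 3.11.15, pandas 2.3.3 and matplotlib 3.10.9 were used.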

Additional observations from a re-analysis of the deposited data

How the results depend on the processing

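No paired analysis was possible because each fatty acid has 1 array and the labels give no shared replicate numbers, and for the same reason no array could be left out. The count of 11 cytosolic synthetases at least 1.5-fold higher with palmitate than with oleate was 11 after centring each array, after cyclic loess and with the probe set of the highest mean. It could not change under the first or last of these. Centring shifts all genes alike, here by -0.040, while the lowest of the 11 stood at 0.79. Probe set choice can change only Iars. Between palmitate and elaidate the count was 10 after centring. Counts past 2-fold depended on the limit by construction: 3 cytosolic genes between palmitate and oleate became 11 at 1.5-fold and 1 at 3-fold, and 1 between palmitate and elaidate became 11 and 0. Among the 6 cytosolic genes in the signal range shared with mitochondrial ones, an alternative chosen after seeing the data, 3 were past 1.5-fold in each of these comparisons and 1 was past 2-fold. The mitochondrial medians of 0 moved with the scaling, after centring to -0.040 for palmitate minus oleate, to -0.028 against elaidate and to -0.012 for elaidate minus oleate, which are the shifts of all genes, and in the last case to -0.0011 after loess. None of the 297 recomputed differences of single synthetases under centring, loess and probe set choice moved by 0.1 on the log2 scale. For most of them this was fixed beforehand. Centring shifts all genes of a comparison by the small amounts given above, and probe set choice leaves every synthetase but Iars unchanged. The difference of Tars between palmitate and oleate, near the limit, fell short of 2-fold after centring, at 0.96. The medians of all genes moved by less than 0.1 in each comparison. Farsb has no probe set of its own, so the phenylalanine pair held Farsa alone; without that pair the median gap was 0.87 between palmitate and oleate.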

Other observations

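2 further motifs were searched on either strand in the same promoter windows. CACGTG, the E-box bound by MYC family proteins, was found for 4 of 13 cytosolic genes (Aars, Farsb, Iars and Tars) and 1 of 14 mitochondrial genes (Ears2), beside 7.15% of all windows. The motif of the nuclear respiratory factor NRF1 is GCGCA and GCGC with any 1 base between them. It was found for 3 of 13 cytosolic genes (Farsb, Kars and Tars) and 2 of 14 mitochondrial genes (Iars2 and Mars2), beside 4.60% of all windows. The E-box was found for 2 of the 6 cytosolic genes with a window that were at least 1.5-fold higher with palmitate than with oleate. It was found for 0 of the 4 measured ones below that limit. The E-box counts of 0 of 4 and 1 of 14 are near the share over all windows. For the NRF1 motif these counts were 1 of 6 and 1 of 4. Tars was the only synthetase whose window held all 3 kinds of motif. The share of all windows that hold all 3 was not computed, and several synthetases, Cars and Nars among them, had no window. Among measured genes with NRF1 type matches, palmitate minus oleate differences were 1.00 for Tars, 0 for Kars, -0.02 for Mars2 and 0 for Iars2.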
